A study of Homo sapiens with 8 samples.

Results

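The genes described here are those of glycolysis and glucose uptake, 31 genes in all. They cover sugar import, the steps between glucose and lactate, the enzymes that make or remove fructose 2,6-bisphosphate, and pyruvate dehydrogenase with its kinases. They were listed by name, and each was represented by the Affymetrix probe set that names only that gene, the one with the highest mean log2 signal over the 8 arrays where there were several. By this rule 29 of the 31 genes were measured, with 70 probe sets between them, among 19775 genes measured in all. SLC16A1 and SLC16A3, which export and import lactate, were not analysed here because the probe annotation used names no probe set for them alone. All 29 lay above the filter on dim signal (a mean log2 signal of 6.01), which 12300 genes of the array passed, and they were tested among those genes.

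Glycolysis splits glucose into pyruvate and yields ATP without oxygen. Tumour cells often run it fast even when oxygen is present and send much of the pyruvate to lactate, and the hypoxia-inducible factors (HIF) switch on many of its genes. The pathway is controlled mainly at sugar uptake, hexokinase, phosphofructokinase and pyruvate kinase, and most of these steps have several isozymes encoded by separate genes.

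The study sorted the side population (SP), cells that pump out Hoechst dye, and the main population (MP), cells that keep it, from 4 human non-small cell lung cancer lines. SP and MP cells of A549, H460, H1650 and H1975 each gave 1 array, so that each line had 2 arrays, and no treatment other than the dye staining and the propidium iodide used to gate live cells distinguishes the samples. Each line is 1 established culture that stands for 1 tumour, both its arrays come from that line, and p-values between lines measure the spread between these arrays and not between separate cultures. A signal is an average over the sorted cells, so fewer cells with a transcript and less transcript per cell cannot be told apart.

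Median log2 signals lay between 5.92 and 6.29 over the 8 arrays. The 3′ minus 5′ difference of GAPDH was between -0.18 and -0.03 and that of ACTB between 0.23 and 0.65 on the log2 scale. The keratins KRT8, KRT18 and KRT19 of simple epithelium had log2 signals of 11.69 or more on every array. In H460, by contrast, the epithelial adhesion gene CDH1 was at 1.61 in SP and 0.63 in MP cells, and EPCAM at 5.97 in SP and 5.25 in MP cells. Of the leukocyte markers PTPRC and CD3E were below the filter, and CD14 and LCP1, with up to 9.42 and 9.33, above it. Of the endothelial markers CDH5, VWF and KDR were below and PECAM1 (7.02 to 7.54) above. All 5 fibroblast markers were above the filter, which applies to the mean over the 8 arrays. COL1A1 was at 12.94 in SP and 13.00 in MP cells of H1975 and COL3A1 at 10.45 in SP and 10.60 in MP cells of H460. COL1A1 was at 8.85 or more on every array, and DCN lay between 6.17 and 7.05. LUM was at 10.27 in SP and 10.53 in MP cells of H460, but at 0.11 in SP and 0.28 in MP cells of H1650. COL3A1 was at 3.93 in SP and 4.71 in MP cells of H1975. ABCG2, the dye transporter, had a log2 difference of SP minus MP of -0.70 for H1650, against 1.08 for A549, 0.36 for H460 and 1.17 for H1975, so directions between SP and MP given for H1650 depend on its deposited labels.

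The lines differed from each other in genes of every functional group of the pathway, and no difference between SP and MP passed the threshold for any of the 29 genes. By a moderated F test of the 4 lines in limma, with population as a covariate, 21 of the 29 genes passed an adjusted p under 0.05, a share of 72.4%. Of all 12300 genes 76.3% passed the same test, so the pathway as a whole did not stand out by the share of its genes that differed. The range of the 4 line means was at least 1 on the log2 scale in 15 of the 29 genes, against 56.9% of all genes tested, and under 0.5 in 10 of the 29, against 12.7% of all genes tested, with the other 4 in between. The median range was 1.05 for the 29 genes and 1.13 for all genes.

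**Figure D1:**
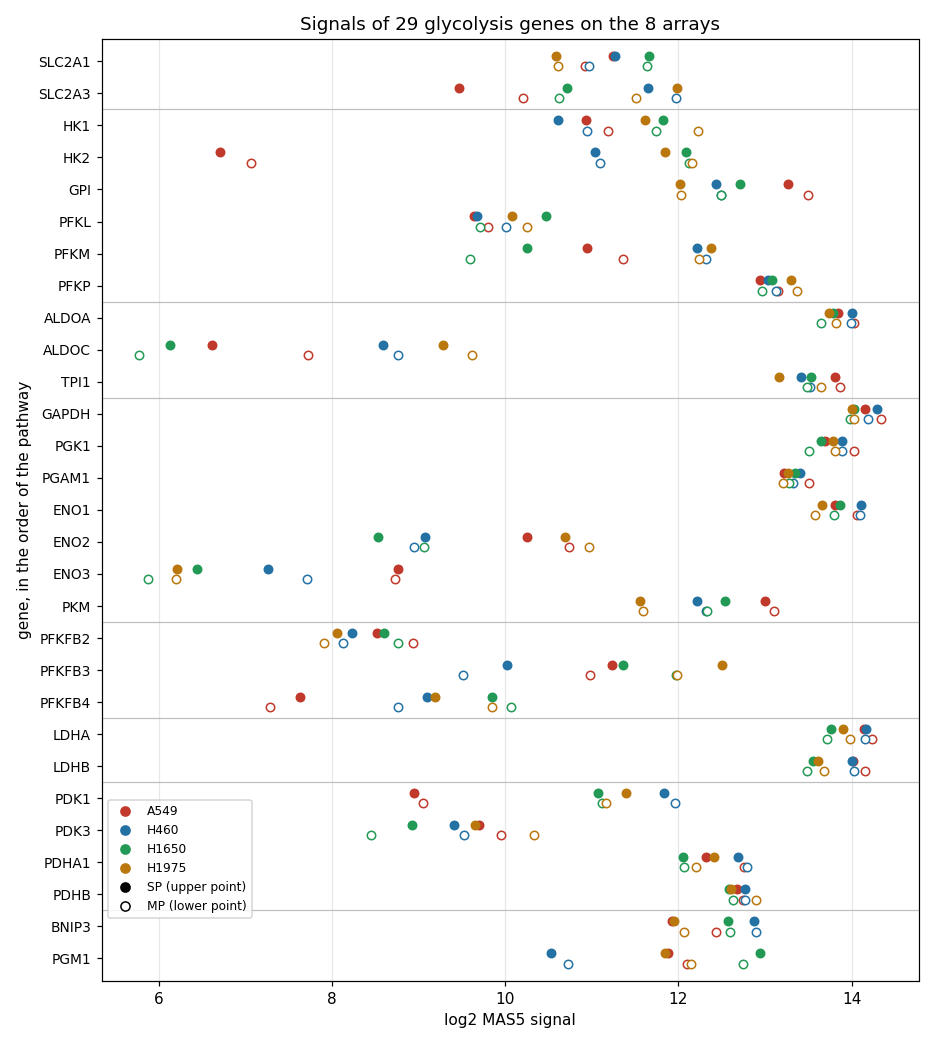
Log2 MAS5 signal (x axis) of each of the 29 measured genes (rows, in pathway order, with lines between functional groups) on the 8 arrays, with colours for the cell lines, filled upper points for SP and open lower points for MP. HK2 in A549 lies at 6.70 and 7.06, apart from 11.04 to 12.16 in the other lines, while GAPDH, PGK1 and PGAM1 lie close together on all arrays; rows are different probes and are not to be set against each other.

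Each line was then set against the mean of the other 3 lines. In A549 7 genes were called higher (22.4% of all genes tested) and 6 lower (21.3% of all genes). In H460 10 were called higher (24.2% of all genes) and 4 lower (26.8%). In H1650 7 were called higher (25.1% of all genes) and 9 lower (25.9%), and in H1975 11 were called higher (28.1% of all genes) and 8 lower (23.8%). H1650 held the lowest line mean for 13 of the 29 genes (27% of all genes), A549 for 5 (21.3%), H460 for 3 (28%) and H1975 for 8 (23.7%). The highest line mean lay in H1650 for 4 of the 29 (24.6% of all genes), in A549 for 8 (21.7%), in H460 for 9 (24.3%) and in H1975 for 8 (29.4%). These 4 contrasts share arrays, so a gene that is low in 1 line is pushed upward in the contrasts of the other 3. Scaling every array to the same median would move the median of all genes by -0.15 in the contrast of A549, 0.23 in that of H460 and -0.06 in that of H1650, so differences of that size depend on the scaling.

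Both sugar importers differed between lines, in unlike patterns. SLC2A1 (GLUT1) is the widespread basal glucose transporter. Its log2 signal was 11.66 in SP and 11.64 in MP cells of H1650, against 11.24 in SP and 10.92 in MP cells of A549, 11.27 in SP and 10.97 in MP cells of H460, and 10.59 in SP and 10.62 in MP cells of H1975. H1650 lay above and H1975 below all other arrays, while A549 and H460 overlapped. The difference from the other 3 lines was 0.72 in H1650 (SE 0.113, limma adjusted p = 0.00145) and -0.68 in H1975 (adjusted p = 0.00184).

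SLC2A3 (GLUT3) is a transporter of high affinity for glucose that is best known from neurons. In A549 its log2 signal was 9.47 in SP and 10.20 in MP cells, against 11.65 in SP and 11.98 in MP cells of H460, 10.71 in SP and 10.62 in MP cells of H1650, and 11.99 in SP and 11.50 in MP cells of H1975. Both A549 arrays lay below the other arrays, and H460 and H1975 overlapped at the top. The difference of A549 from the other 3 lines was -1.57 (SE 0.213, limma adjusted p = 0.001), or 2.98-fold lower, and the 2 other probe sets of SLC2A3 gave -0.81 and -1.19.

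HK2 had the widest range of all 29 genes. It encodes hexokinase 2, which phosphorylates glucose at the outer mitochondrial membrane and is the inducible isozyme that many tumours carry. Its log2 signal in A549 was 6.70 in SP and 7.06 in MP cells, against 11.04 in SP and 11.10 in MP cells of H460, 12.08 in SP and 12.13 in MP cells of H1650, and 11.85 in SP and 12.16 in MP cells of H1975. Both A549 arrays were far below the others, H460 lay between, and H1650 and H1975 overlapped. HK2 was 28.7-fold lower in A549 than in the other 3 lines (log2 difference -4.84, SE 0.117, limma adjusted p = 1.66e-06). The A549 signals of HK2 were not far above the medians of these arrays, 6.29 in SP and 6.14 in MP cells. The size of the fold is therefore uncertain. A range as wide as that of HK2 was found in 5.09% of the genes tested. The 2 dimmer probe sets of HK2 were also lower in A549, by -2.32 and -3.39, but gave -0.59 and -0.62 in H1975, where the brightest gave 1.98.

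HK1, the widespread housekeeping hexokinase, varied far less. It had a log2 signal of 10.94 in SP and 11.18 in MP cells of A549, 10.61 in SP and 10.95 in MP cells of H460, 11.82 in SP and 11.74 in MP cells of H1650, and 11.62 in SP and 12.22 in MP cells of H1975. A549 and H460 formed the lower pair and H1650 and H1975 the upper pair, with overlap inside each pair. HKDC1, a further human hexokinase gene that was not among the 31, had 10.78 in SP and 11.14 in MP cells of A549 and 11.13 in SP and 10.50 in MP cells of H1975, against 7.10 in SP and 7.42 in MP cells of H460 and 6.75 in SP and 7.34 in MP cells of H1650. It was higher in A549 by 2.59 (SE 0.239, limma adjusted p = 0.000176). A549 thus paired a low HK2 with a high HKDC1, and H460 and H1650 had a low HKDC1. H1975 had a high HKDC1 and a high signal of the brightest HK2 probe set, but not of the dimmer ones. With the mean of all HK2 probe sets the difference in H1975 was 0.26 (limma adjusted p = 0.249).

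GPI, the isomerase that follows hexokinase, had its highest signals in A549, with 13.26 in SP and 13.49 in MP cells, against 12.02 to 12.71 on the other 6 arrays. It was higher in A549 by 1.02 (SE 0.0994, limma adjusted p = 0.000223) and lower in H1975, with a difference of -0.79 (adjusted p = 5e-04). Phosphofructokinase, the committed step, has a muscle, a liver and a platelet subunit, and only that of muscle passed the F test. PFKM had a log2 signal of 10.26 in SP and 9.59 in MP cells of H1650, against 10.94 in SP and 11.36 in MP cells of A549, 12.22 in SP and 12.32 in MP cells of H460, and 12.37 in SP and 12.24 in MP cells of H1975. H1650 was lowest and A549 next, and H460 and H1975 overlapped. PFKM was 3.96-fold lower in H1650 than in the other 3 lines (log2 difference -1.99, SE 0.189, limma adjusted p = 0.000137). The platelet subunit gene PFKP lay between 12.95 and 13.37 on all arrays (F test adjusted p = 0.0726), and the liver subunit gene PFKL between 9.63 and 10.47 (F test adjusted p = 0.367). In the contrast of 1 line, PFKP was called higher in H1975 by 0.28 (adjusted p = 0.0235), a call that was lost under 6 of 17 alternatives.

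Among the aldolases the isozymes diverged. ALDOA, the muscle-type aldolase of most tissues, had a range of line means of 0.28 (F test adjusted p = 0.0887). ALDOC, the brain-type aldolase, had the second widest range, 3.50. Its log2 signal in H1650 was 6.13 in SP and 5.77 in MP cells, against 6.61 in SP and 7.73 in MP cells of A549, 8.59 in SP and 8.76 in MP cells of H460, and 9.28 in SP and 9.62 in MP cells of H1975. The 4 lines did not overlap at any place in this order. ALDOC was 5.60-fold lower in H1650 than in the other 3 lines (log2 difference -2.48, SE 0.283, limma adjusted p = 0.000307) and higher in H1975 by 2.18 (adjusted p = 0.000583). TPI1, which interconverts the triose phosphates, did not pass the F test (adjusted p = 0.0558), and its call as higher in A549 by 0.38 (adjusted p = 0.023) was lost under 7 of 17 alternatives.

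The lower part of the pathway was flat in signal at its first steps. GAPDH, which oxidises glyceraldehyde 3-phosphate, PGK1, which makes the first ATP, and PGAM1, which moves the phosphate group, had ranges of line means of 0.25, 0.32 and 0.13 on the log2 scale. A range at least as wide was found in 97.8%, 95.8% and 99.8% of all genes tested, and the F test gave adjusted p = 0.0558 for GAPDH, 0.118 for PGK1 and 0.675 for PGAM1. PGK1 was called lower in H1650, with a difference of -0.27 (adjusted p = 0.0439), a call that was lost under 9 of 17 alternatives. The brightest GAPDH probe set is the 5′ probe set of the control series of the array, and the 5 others gave differences between lines of the same sign. GAPDH signals lay between 13.98 and 14.34, where the brightest signal of an array lay between 14.26 and 14.67. Whether signals so near the top of the scale understate differences was not tested.

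The enolase isozymes, in contrast, parted. ENO1, the enolase of most tissues, passed the F test with a range of 0.48 (adjusted p = 0.0173). ENO2 encodes the neuronal enolase. Its log2 signal was 10.69 in SP and 10.96 in MP cells of H1975, against 10.25 in SP and 10.73 in MP cells of A549, 9.07 in SP and 8.95 in MP cells of H460, and 8.53 in SP and 9.06 in MP cells of H1650. A549 and H1975 overlapped above, and H460 and H1650 overlapped below. ENO2 was higher in H1975 by 1.39 (SE 0.158, limma adjusted p = 0.00031) and in A549 by 0.95 (adjusted p = 0.00265), and the call in A549 was lost without the MP array of A549 (0.82, adjusted p = 0.0548).

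ENO3, the muscle enolase, had a log2 signal of 8.76 in SP and 8.73 in MP cells of A549, against 7.26 in SP and 7.71 in MP cells of H460, 6.44 in SP and 5.87 in MP cells of H1650, and 6.21 in SP and 6.19 in MP cells of H1975. A549 stood above all other arrays, and H1650 and H1975 overlapped near the filter. ENO3 was 4.38-fold higher in A549 than in the other 3 lines (log2 difference 2.13, SE 0.257, limma adjusted p = 0.000585). Pyruvate kinase gene PKM, the last step, had 13.00 in SP and 13.10 in MP cells of A549, 12.21 in SP and 12.31 in MP cells of H460, 12.53 in SP and 12.33 in MP cells of H1650, and 11.56 in SP and 11.59 in MP cells of H1975. No lines overlapped, though H460 and H1650 lay close, and PKM was higher in A549 by 0.96 (limma adjusted p = 0.000209) and lower in H1975, with a difference of -1.01 (adjusted p = 0.000111). With the mean of both PKM probe sets the value in A549 was 0.75 (adjusted p = 0.0608).

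All 3 PFKFB genes passed the F test. They encode enzymes that make and break down fructose 2,6-bisphosphate, the strongest activator of phosphofructokinase, and PFKFB3 and PFKFB4 are known targets of HIF. PFKFB3 had a log2 signal of 10.02 in SP and 9.51 in MP cells of H460, against 11.23 in SP and 10.98 in MP cells of A549, 11.36 in SP and 11.97 in MP cells of H1650, and 12.50 in SP and 11.98 in MP cells of H1975. H460 was lowest without overlap, and the MP array of H1650 came close to that of H1975. PFKFB3 was 3.75-fold lower in H460 than in the other 3 lines (log2 difference -1.91, SE 0.216, limma adjusted p = 0.000309).

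PFKFB4 was lowest in another line. Its log2 signal in A549 was 7.63 in SP and 7.28 in MP cells, against 9.10 in SP and 8.76 in MP cells of H460, 9.85 in SP and 10.07 in MP cells of H1650, and 9.18 in SP and 9.85 in MP cells of H1975. Both A549 arrays lay below all others. PFKFB4 was 4.04-fold lower in A549 (log2 difference -2.01, SE 0.225, limma adjusted p = 0.000414) and higher in H1650 by 1.32 (adjusted p = 0.0021). PFKFB2, the heart isozyme, had a range of 0.74 (F test adjusted p = 0.0356).

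Both lactate dehydrogenase genes passed the F test with small differences. LDHA, the subunit that favours lactate formation, had log2 signals of 13.76 in SP and 13.71 in MP cells of H1650, against 13.90 to 14.23 on the other 6 arrays. It was lower in H1650, with a difference of -0.36 (SE 0.0654, limma adjusted p = 0.00298). LDHB, the subunit of heart, was lower in H1650 as well, with a difference of -0.39 (adjusted p = 0.0025). Calls of LDHA and LDHB as higher in A549, of 0.24 (adjusted p = 0.0207) and 0.35 (adjusted p = 0.00533), were lost when arrays were scaled to the same median, where the values were 0.09 (adjusted p = 0.588) and 0.21 (adjusted p = 0.236).

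Among the genes of pyruvate dehydrogenase and its kinases, a kinase gene differed between the lines more widely than the genes of the enzyme. PDK1 encodes a kinase that shuts off pyruvate dehydrogenase and is a known HIF target. Its log2 signal in A549 was 8.95 in SP and 9.05 in MP cells, against 11.84 in SP and 11.96 in MP cells of H460, 11.07 in SP and 11.12 in MP cells of H1650, and 11.40 in SP and 11.16 in MP cells of H1975. No lines overlapped, though H1650 and H1975 lay close, with A549 at the bottom and H460 at the top. PDK1 was 5.38-fold lower in A549 than in the other 3 lines (log2 difference -2.43, SE 0.113, limma adjusted p = 1.04e-05) and higher in H460 by 1.44 (adjusted p = 5.02e-05). The other 2 probe sets of PDK1 gave -3.44 and -0.59 in A549.

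PDK3, another of these kinases, gave no single answer. Its brightest probe set was lower in H1650, with a difference of -1.07 (SE 0.213, limma adjusted p = 0.00439), but the next 2 probe sets gave 0.77 and 0.50 there, and the call was lost with the mean of all 5 probe sets. PDHA1, the catalytic alpha subunit of pyruvate dehydrogenase, was lower in H1650 with a difference of -0.47 (adjusted p = 0.0161) and higher in H460 by 0.44 (adjusted p = 0.0211). Each of these PDHA1 calls was lost when either array of its own line was left out, with values of -0.52 and -0.42 in H1650 and 0.45 and 0.43 in H460. PDHB, the beta subunit, had a range of only 0.16 (F test adjusted p = 0.506).

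The kinase PDK4, not among the 31 and named after its values were seen, had 12.52 in SP and 12.03 in MP cells of A549, against 11.33 in SP and 10.57 in MP cells of H460, 7.08 in SP and 7.67 in MP cells of H1650, and 10.67 in SP and 9.70 in MP cells of H1975. Both A549 arrays lay above all others and both H1650 arrays below. PDK4 was higher in A549 by 2.77 (SE 0.275, limma adjusted p = 0.000238), the reverse of PDK1 in that line, and lower in H1650, with a difference of -3.76 (adjusted p = 4.4e-05).

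The last 2 genes lie beside the pathway. PGM1, which links glucose 6-phosphate to glycogen, had a log2 signal of 10.53 in SP and 10.73 in MP cells of H460, against 11.88 in SP and 12.10 in MP cells of A549, 12.95 in SP and 12.75 in MP cells of H1650, and 11.84 in SP and 12.15 in MP cells of H1975. H460 was lowest, H1650 highest, and A549 and H1975 overlapped. PGM1 was 3.13-fold lower in H460 (log2 difference -1.65, SE 0.116, limma adjusted p = 3.06e-05) and higher in H1650 by 1.31 (adjusted p = 9.86e-05). BNIP3, a HIF target that acts in mitophagy, was higher in H460 by 0.62 (adjusted p = 0.00279) and lower in H1975, with a difference of -0.54 (adjusted p = 0.00507). The other probe set of BNIP3 gave 0.82 in H460 but only -0.05 in H1975, and it was lowest in A549, with -0.64. The BNIP3 call in H460 was lost without its SP array (0.53, adjusted p = 0.062) and that in H1975 without its MP array (-0.51, adjusted p = 0.0609).

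**Figure D2:**
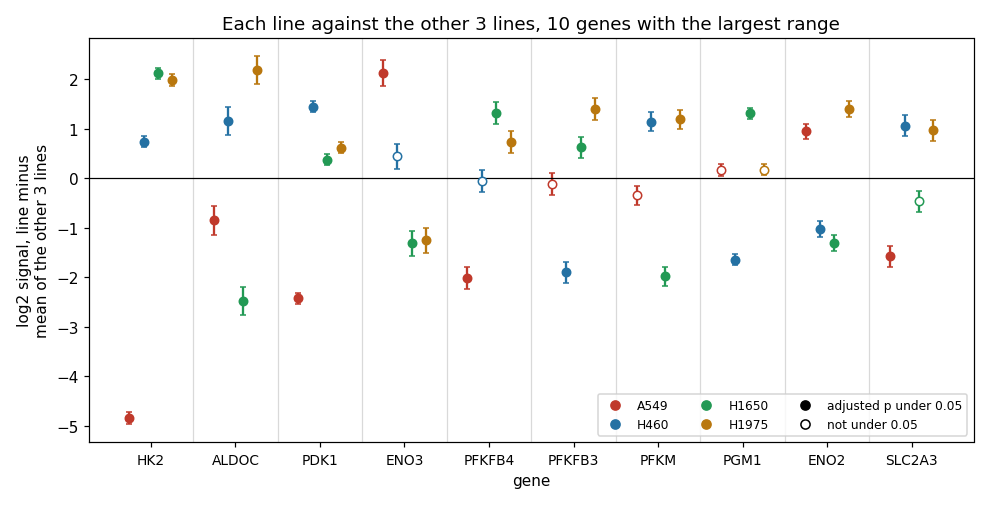
Log2 signal of each line minus the mean of the other 3 lines (y axis, bars are the limma standard error) for the 10 genes with the widest range of line means, with filled points where the adjusted p was under 0.05. HK2, PDK1, PFKFB4 and SLC2A3 have their lowest point in A549 (-4.84, -2.43, -2.01 and -1.57) and ENO3 its highest (2.13), while the points of 1 gene share arrays.

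Of the 10 genes with the widest ranges, HK2, PDK1, PFKFB4 and SLC2A3 thus had A549 at the bottom, and ENO3 had it at the top. To show the sequence ahead of these genes, the 250 bases before a transcription start were taken from RefSeq (GRCh38.p14), where 28 of the 31 listed genes had at least 1 window and SLC2A3 had none. The windows were searched on both strands for ACGTG and GCGTG, the core letters of the HIF response element. A core ACGTG inside the E-box CACGTG, which is also the letters of MYC and USF sites, is read once on each strand. Of the 28 genes 24 (85.7%) held a core in at least 1 window, against 47.4% of all genes in the table, and 32 of their 57 windows (56.1%) did, against 43.2% of all 35116 windows. A gene with several windows has more chances to hold a core, and these 28 genes had 57 windows, where all 27305 genes had 35116. The windows of these genes also held more CG pairs, with a median of 22, against 11 over all windows. A match describes letters only. For genes with several starts, the window with the most cores is printed, 5′ to 3′ on the strand of the gene, with the cores in capitals on whichever strand they lie. HK2 is at chr2:74834920-74835169 (plus strand), with 6 cores and 2 E-boxes, PDK1 at chr2:172555840-172556089 (plus strand), with 2 cores, PFKFB4 at chr3:48556804-48557053 (minus strand), with 1 core, and ENO3, which differed the other way, at chr17:4950302-4950551 (plus strand), with 2 cores. Cores were therefore present ahead of genes low in A549 and ahead of ENO3.
HK2: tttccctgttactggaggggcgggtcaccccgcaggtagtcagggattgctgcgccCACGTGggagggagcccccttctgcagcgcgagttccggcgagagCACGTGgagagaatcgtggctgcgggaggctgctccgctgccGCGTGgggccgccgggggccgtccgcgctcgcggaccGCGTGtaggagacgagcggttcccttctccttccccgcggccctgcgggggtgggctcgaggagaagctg
PDK1: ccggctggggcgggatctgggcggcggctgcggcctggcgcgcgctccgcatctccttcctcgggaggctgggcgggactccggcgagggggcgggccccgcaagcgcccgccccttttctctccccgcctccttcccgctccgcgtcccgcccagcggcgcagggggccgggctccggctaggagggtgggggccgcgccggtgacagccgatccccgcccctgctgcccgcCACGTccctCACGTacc
PFKFB4: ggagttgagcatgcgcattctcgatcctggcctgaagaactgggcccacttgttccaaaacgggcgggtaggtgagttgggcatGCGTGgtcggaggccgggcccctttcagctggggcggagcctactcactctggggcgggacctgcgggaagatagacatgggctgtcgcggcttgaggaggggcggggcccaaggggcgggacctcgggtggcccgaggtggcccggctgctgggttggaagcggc
ENO3: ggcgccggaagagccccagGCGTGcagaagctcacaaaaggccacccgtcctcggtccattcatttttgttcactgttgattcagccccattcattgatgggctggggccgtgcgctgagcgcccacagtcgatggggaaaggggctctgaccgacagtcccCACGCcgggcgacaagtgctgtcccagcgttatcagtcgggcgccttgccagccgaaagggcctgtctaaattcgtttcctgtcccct

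SP cells were compared with MP cells of the same line, with the line as a block. By limma 0 of the 29 genes passed an adjusted p under 0.05, where 0% of all 12300 genes did, and 1 of the 29 had an unadjusted p under 0.05, where 372 of all genes did. That gene was HK1, with a mean log2 difference of SP minus MP of -0.28 (95% interval -0.55 to -0.01, adjusted p = 0.945). Its log2 ratios were -0.25 for A549, -0.34 for H460, 0.08 for H1650 and -0.60 for H1975. With the 6 arrays left after H1650 was taken out, 0 of the 29 genes passed, against 0.203% of all genes, while 5 of the 29 had an unadjusted p under 0.05, where 1663 of all genes did. The test of whether the SP effect of H1650 differed from that of the other 3 lines called 0 of the 29 genes, against 0.333% of all genes, with an unadjusted p under 0.05 for 5 of the 29 and for 1489 of all genes.

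The intervals of the fit of all 4 lines limit what could have been missed in the mean signal of the probe set used. They take the labels of H1650 as deposited and do not limit an effect in the other lines alone. For the abundant enzymes the intervals were narrow, from -0.17 to 0.13 for GAPDH, -0.16 to 0.11 for LDHA and -0.20 to 0.18 for PKM on the log2 scale. Signals of GAPDH and LDHA lay near the top of the scale, and whether this understates differences was not tested. For ALDOC the interval ran from -0.89 to 0.26 and for PFKFB3 from -0.27 to 0.60.

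PFKFB3 had the smallest adjusted p of the 29 genes in both fits that set H1650 apart. Its log2 ratio of SP over MP was 0.25 for A549, 0.51 for H460 and 0.52 for H1975, and -0.62 for H1650. Without H1650 its mean was 0.43 (SE 0.0991, limma adjusted p = 0.153), and H1650 differed from the other 3 lines by -1.05 (adjusted p = 0.0955), neither past the threshold. The genes of the mitosis list, such as TOP2A and CDK1, were split the same way. All 12 had a higher signal in SP than in MP cells of A549, H460 and H1975, with medians of 0.70, 0.45 and 0.92, and all 12 a lower one in H1650, with a median of -0.92. The part of cell cycle phase in the PFKFB3 ratios was not tested.

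A ratio of SP over MP of 2-fold or more in either direction, with 1 array each and no test, occurred in 1 of the 29 genes in A549 (4.28% of all genes), 0 in H460 (3.4%), 0 in H1650 (3.04%) and 0 in H1975 (4.14%). The gene was ALDOC, with 6.61 in SP and 7.73 in MP cells of A549. Its log2 ratio was -1.11 for A549, -0.17 for H460, 0.36 for H1650 and -0.34 for H1975, and the mean was -0.32 (SE 0.245, limma adjusted p = 0.945), or -0.05 without A549, so the lines did not share 1 direction. HK2, BNIP3 and PDHB had a lower signal in SP than in MP cells of all 4 lines, and none of the 29 had a higher one in all 4. The share of all genes with 1 sign in all 4 lines was not counted, so these counts have no background to be read against. The log2 ratios of HK2 were -0.36 for A549, -0.06 for H460, -0.04 for H1650 and -0.31 for H1975, and their mean was -0.19 ± 0.17 (SD over 4 lines, adjusted p = 0.945 from limma). BNIP3 had -0.51 for A549, -0.02 for H460, -0.03 for H1650 and -0.12 for H1975, averaging -0.17 ± 0.23, and without A549 its mean was -0.06. PDHB had -0.07 for A549, -0.0015 for H460, -0.05 for H1650 and -0.29 for H1975, averaging -0.10 ± 0.13, and without H1975 its mean was -0.04 (SD over 4 lines, adjusted p = 0.945 from limma for both genes). In both genes 1 line thus held most of the mean. The other probe set of BNIP3 gave 0.06 for A549, 0.03 for H460, 0.0041 for H1650 and -0.21 for H1975, while that of PDHB was below 0 in all lines. The 2 other probe sets of HK2 did not have the negative sign in all lines, and with the mean of all its probe sets the value of HK2 was 0.12.

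**Figure D3:**
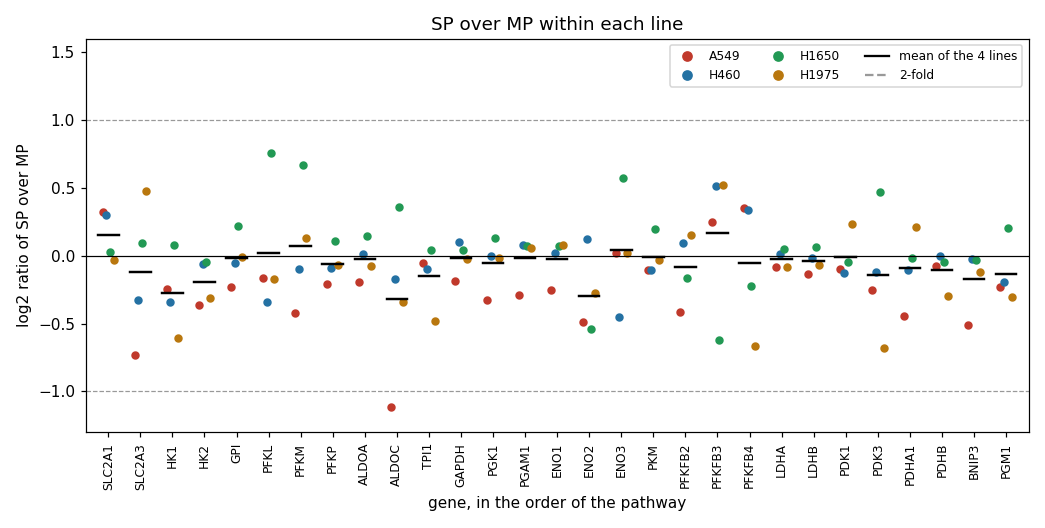
Log2 ratio of SP over MP (y axis) in each line (coloured points) for the 29 genes in pathway order, with the mean of the 4 lines as a black bar and dashed lines at 2-fold. One point, ALDOC in A549 at -1.11, lies beyond 2-fold, and the H1650 points of PFKL (0.76), PFKM (0.67) and PFKFB3 (-0.62) lie away from those of the other lines.

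Within A549 25 of the 29 genes had a lower signal in SP than in MP cells, against 49.4% of all genes. The median log2 ratio was -0.23 for the 29 genes and 0.00385 over all genes. Bright genes shared this shift. Of the 1352 genes with a mean log2 signal of 12 or more, 79.6% had a lower signal in SP cells of A549, with a median of -0.14, and after quantile normalization 21 of the 29 genes were lower, with a median of -0.12. In H460 19 of the 29 genes had a lower signal in SP cells, against 55% of all genes and 49.4% of the bright ones. In H1975 20 did, against 54.7% of all genes and 57.6% of the bright ones. In H1650 9 had a lower signal and 20 a higher one, against 51.2% of all genes and 37.6% of the bright ones with a lower signal. The direction in H1975 turned with the scaling, since 19 of the 29 had a higher signal in SP cells once arrays were scaled to the same median.

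Genes around the pathway, taken from lists of pathway members, showed where else the lines diverged. Of 21 tested genes among other glycolysis and pyruvate genes 18 passed the F test of the lines, of 9 in the pentose phosphate pathway 8, of 3 in gluconeogenesis 3, of 22 hypoxia targets outside glycolysis 19 and of 5 in the HIF pathway 4, all to be read against 76.3% of all genes. The mitosis list had 6 of 12. PDP1, the phosphatase that turns pyruvate dehydrogenase back on, was lower in H460, with a difference of -2.39 (SE 0.115, limma adjusted p = 5.99e-06), and higher in H1975 by 2.29 (adjusted p = 1.02e-05). PGM2, which interconverts pentose phosphates, was lower in A549, with a difference of -1.56 (adjusted p = 4.75e-05). SLC16A7, a carrier of lactate and pyruvate, had its lowest signals in H1975, with a difference of -1.55 (adjusted p = 5.52e-05).

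In the pentose phosphate branch, PGD, TALDO1 and TKT were called higher in A549 and in H460. PGD, which oxidises 6-phosphogluconate and makes NADPH, had a log2 signal of 13.51 in SP and 13.59 in MP cells of A549 and 13.15 in SP and 13.19 in MP cells of H460, against 11.19 in SP and 10.91 in MP cells of H1650 and 10.49 in SP and 10.07 in MP cells of H1975. A549 and H460 lay more than 1 log2 unit above the other lines. PGD was higher in A549 by 2.05 (SE 0.118, limma adjusted p = 2.23e-05) and in H460 by 1.55 (adjusted p = 4.52e-05). TALDO1 and TKT, the transaldolase and transketolase that return pentoses to glycolysis, were higher in A549 by 1.08 (adjusted p = 6.12e-05) and 0.55 (adjusted p = 0.0025) and in H460 by 0.95 (adjusted p = 6.3e-05) and 0.46 (adjusted p = 0.00409). H1650 was lower for TALDO1, with a difference of -1.19 (adjusted p = 2.86e-05), but not called for TKT (-0.13, adjusted p = 0.272). PGLS, the lactonase ahead of PGD, ran the other way, with differences of -0.75 (adjusted p = 0.00398) in A549 and -0.79 (adjusted p = 0.00243) in H460 and of 1.18 (adjusted p = 0.000343) in H1975.

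**Figure D4:**
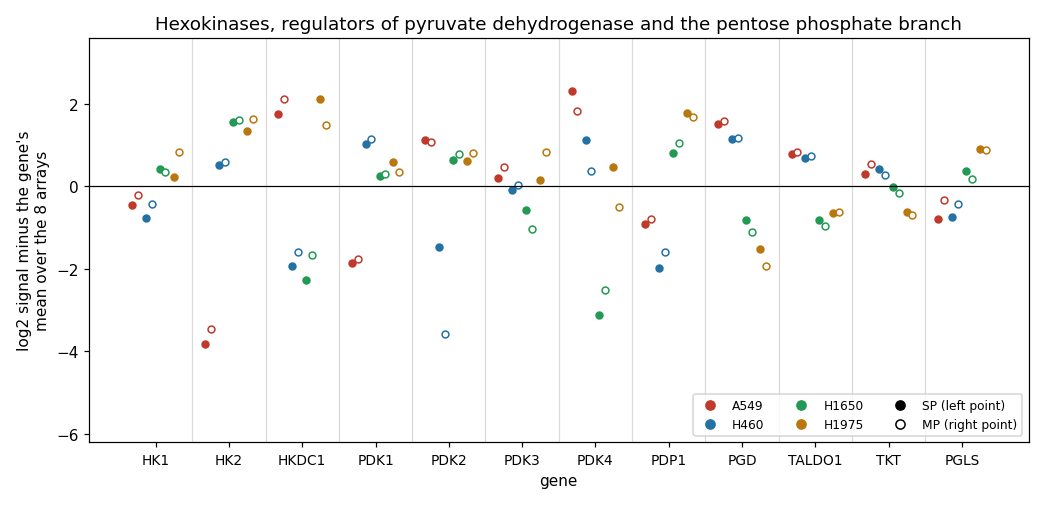
Log2 signal on each array minus the mean of the gene over the 8 arrays (y axis) for hexokinase genes, regulators of pyruvate dehydrogenase and pentose phosphate genes, with colours for the lines, filled left points for SP and open right points for MP. In A549 HK2 and PDK1 lie at the bottom and HKDC1 and PDK4 near the top, and PGD lies high in A549 and H460 and low in H1650 and H1975.

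In gluconeogenesis, the glucose 6-phosphatase subunit gene G6PC3 was higher in A549 by 0.98 (limma adjusted p = 0.000519) and in H460 by 0.91 (adjusted p = 0.00051). PC, which carboxylates pyruvate, was higher in H1975 by 1.30 (adjusted p = 0.00066). PCK2, the mitochondrial carboxykinase, was lower in H460, with a difference of -0.53 (adjusted p = 0.0142).

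The 22 tested hypoxia targets outside glycolysis did not all follow 1 line order. Their median difference from the other 3 lines was 0.84 in H1975, 0.25 in H1650, -0.37 in A549 and -0.64 in H460. In H1975 15 were called higher (28.1% of all genes) and 1 lower (23.8%), and in H460 3 higher (24.2%) and 13 lower (26.8%). In A549 4 were called higher (22.4% of all genes) and 11 lower (21.3%), and in H1650 8 higher (25.1%) and 4 lower (25.9%). VEGFA, the vessel growth factor, was lower in A549, with a difference of -1.50 (SE 0.0968, limma adjusted p = 3.56e-05), and higher in H1975 by 1.55 (adjusted p = 2.16e-05). NDRG1 and BNIP3L, a stress gene and a mitophagy receptor, were lower in H460, with differences of -2.03 (adjusted p = 8.93e-06) and -1.88 (adjusted p = 7.66e-06). CA12, a carbonic anhydrase, was higher in A549 by 3.18 (adjusted p = 1.14e-05), against the direction of HK2, PDK1 and VEGFA there, and lower in H1650, with a difference of -5.78 (adjusted p = 2.65e-06). Of the HIF genes, HIF1A was higher in A549 by 0.49 (adjusted p = 0.00171), EPAS1 was lower in H460, with a difference of -1.12 (adjusted p = 5.01e-05), HIF1AN was lower in H1975, with a difference of -0.90 (adjusted p = 0.00183), and ARNT was higher in H1975 by 0.73 (adjusted p = 0.0148).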

How the data were processed

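Total RNA of sorted SP and MP cells from 4 lung cancer lines was hybridised to Affymetrix HG-U133 Plus 2.0 arrays, 1 per population and line. The values the authors deposited are log2 signals made with MAS5 in GCOS 1.4, as listed in the submitters' processing notes, and on the linear scale every array has the same trimmed mean (500.1). No floor was set on dim signals, and no detection calls were used here. Of 54675 probe sets 41097 carry 1 gene symbol, 1801 several and 11777 none. The brightest probe set stood for a gene.

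Fits used limma 3.58.1 in R 4.3.3 (lmFit, eBayes with trend) on the 12300 genes at or above a mean log2 signal of 6.01, with Benjamini-Hochberg adjustment over all of them. SP was compared with MP with the cell line as a block, and lines with population as a covariate. The line pairs the arrays by design: across genes, the deviations of a line's arrays from the mean of their population had r of 0.887 or more (at most 0.940), and each array matched its own line best. The number of arrays limits the precision. The fits were tested on simulated data. The members and lists were chosen with earlier results of these data known. In full were given the 10 genes with the widest range of line means among those past the F test, those 2-fold different between SP and MP in any line and up to 3 per direction with 1 sign in all lines; of other lists, up to 4 genes with the smallest F test p. Alternatives were quantile normalization, a common median of the arrays, linear signals floored at 32 or raised by 16, no filter, no trend, the mean of all probe sets, no control series probe sets, no block or no population term, and leaving out each line or array. Scaling within a line was added after seeing the data.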

Additional observations from a re-analysis of the deposited data

Results flagged for a closer look

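Of 87 sets of 4 values looked at (the SP signals, the MP signals and the SP over MP ratios of the 29 genes), 2 had 1 value far from the others, where chance alone flags about 1 in 20. For PFKL, the liver subunit gene of phosphofructokinase, the log2 ratio of SP over MP was 0.76 in H1650, against -0.34 to -0.17 in the other 3 lines. The second PFKL probe set gave 0.35 in H1650. For PGAM1, phosphoglycerate mutase, the log2 ratio was -0.29 in A549, against 0.06 to 0.08 in the other 3 lines. PGAM1 is a bright gene, with a mean log2 signal of 13.32. Of the genes at 12 or more, 79.6% had a lower signal in SP cells of A549, with a median of -0.14. The difference of H1650 from the other lines did not pass the limma test for PFKL (0.98, adjusted p = 0.143).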

How the results depend on the processing

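For the 10 genes with the widest range between lines, the call in the line with the largest difference held its sign and its side of the threshold under all alternatives that gave a value. Calls of the same genes in other lines did not all hold, such as PFKFB3 in H1650 (7 of 17 alternatives), PDK1 in H1650 (8 of 17) and ALDOC in A549 (10 of 17). Of 62 calls of a gene in a line, 31 were kept in all settings and 31 were lost in at least 1. The F test called 18 to 24 of the 29 genes and 7528 to 10544 of all genes. Between SP and MP 0 of the 29 were called in any setting, without the line block included, and leaving out a line gave 0 to 25 genes in all, the 25 without H1650. Of the values named for SP, 1 turned, HK2, with 0.12 from the mean of all probe sets. Scaling to the same median left 4 genes called higher in A549, a fit without trend left 6 called higher in H460, and quantile normalization gave 7 called lower in H460. Leaving out 1 array gave 4 to 8 genes called higher in A549 (4 without the MP array of A549), 4 to 13 called higher in H460 (4 without either array of H460), 7 to 13 called higher in H1975 and 5 to 9 called lower in H1975 (7 and 5 without the MP array of H1975), where a line left with 1 array was assumed to vary like the others. The shares of all genes called in the contrasts of single lines were not counted under the alternatives. A change in the 29 genes therefore cannot be told from a change in all genes. The cause of these shifts was not tested. Counts for the lists around the pathway were made in the main setting alone. Dim signals such as those of ENO3 and ALDOC, and of HK2 in A549, lie near the filter, where ratios are least precise.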
